A study of Mus musculus with 10 samples.

Results

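The families of axon guidance ligands and receptors were followed in mouse preadipocytes, the fibroblast-like cells that can become fat cells. Members were taken by gene symbol: the semaphorins (Sema), plexins (Plxn), neuropilins (Nrp), Robo receptors, Slits, netrins (Ntn), Eph receptors and ephrins (Efn), and in addition Dscam by name. The set was selected on earlier log2 fold changes and adjusted p-values of this same comparison, so the values below describe the members and are no independent test of them. This gave 65 genes of the 32903 to which counts could be assigned, 35 ligands and 30 receptors. All cells were preadipocytes of the inguinal subcutaneous fat of male mice with the genotype WT C57 BL6. Of 10 libraries, 5 came from cells given only DMSO, the solvent, and 5 from cells given 2.5 µM BPS dissolved in it. BPS, or bisphenol S, replaces bisphenol A in many plastics and differs from it by a sulfonyl bridge between the phenol rings. Neither the length of exposure nor the age of the mice was given in the sources used here.

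Axon guidance molecules were first described as the cues that steer growing nerve fibres, and many are also made by mesenchymal, vascular and immune cells. Semaphorins signal through plexins, with the neuropilins as co-receptors of most secreted class 3 members. Slits bind Robo receptors, netrins bind Dcc, neogenin and Unc5 receptors, and ephrins, which stay on the cell surface, bind Eph receptor tyrosine kinases on the neighbouring cell. These receptors act largely through small GTPases, which rearrange actin and change cell adhesion and shape.

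The libraries held 37920689 to 42717227 estimated counts each. All 12 preadipocyte markers looked at passed the filter on low counts, whereas 6 of 8 fat cell markers had under 10 counts in every library, and Lep, the leptin gene, had 0. Of the preadipocyte markers, Cd34 and Thy1 were higher in BPS, with log2 fold changes of 0.28 and 0.19 (edgeR adjusted p = 0.000428 and 0.00129). The label of the cells held against these markers. The summed level of 8 mural cell markers was 78.4 to 83.8 CPM in DMSO and 86.5 to 100.2 CPM in BPS. CPM are assigned counts per 1000000 of the scaled library size. Of these markers, Mcam and Cspg4 were called higher in BPS and no other was called. Cspg4, at 39.1 and 43.5 CPM on average, and Mcam, at 20.1 and 25.9 CPM, made up most of the sum. All 7 tested mural markers had a log2 fold change above 0, but Rgs5 stood at only 3.55 and 3.84 CPM. Higd1b had 0 to 2 counts per library. The summed level of 7 mesothelial markers was 9.06 to 11 CPM in DMSO and 11 to 12.9 CPM in BPS, and Krt19, at 9.34 and 11.2 CPM on average, made up most of it. Krt19 was called higher, while Wt1, the only other tested mesothelial marker, had a log2 fold change of -0.59 and was not called (edgeR adjusted p = 0.155). The defining mesothelial markers Msln and Upk3b were at 0 counts in every library. Endothelial markers summed to 27.3 to 34.3 CPM in DMSO and 26.7 to 34.0 CPM in BPS, and none of 10 was called. In a culture measured in bulk, fewer cells of a type and less RNA per cell cannot be told apart, and the part of these called markers in the results below was not tested.

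The preadipocytes expressed members of every family. To compare genes, levels were divided by transcript length and are given as CPM per kilobase, the mean over all 10 libraries. Slit3 was the most abundant member, at 123 CPM per kilobase. Among the ligands it was followed by Sema7a, a membrane-anchored semaphorin, at 56.5 CPM per kilobase. The secreted Sema3a stood at 38 CPM per kilobase and Slit2 at 37.9 CPM per kilobase. The B-type ephrin Efnb1 stood at 32.8 CPM per kilobase. Among the receptors Plxnb2 led with 63.5 CPM per kilobase. The neuropilin Nrp1 had 35.7 and Plxna1 had 35.0 CPM per kilobase. The B-type Eph receptors Ephb3 and Ephb4 had 29.6 and 28.4 CPM per kilobase. The lengths of Slit2 and Plxnb2 rest on transcripts that held 14.8% and 7.32% of the counts of each gene, so their place in this order is less certain than that of the others. Neighbours such as Sema3a and Slit2, or Ephb3 and Ephb4, differed by less than the spread between libraries.

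**Figure D1:**
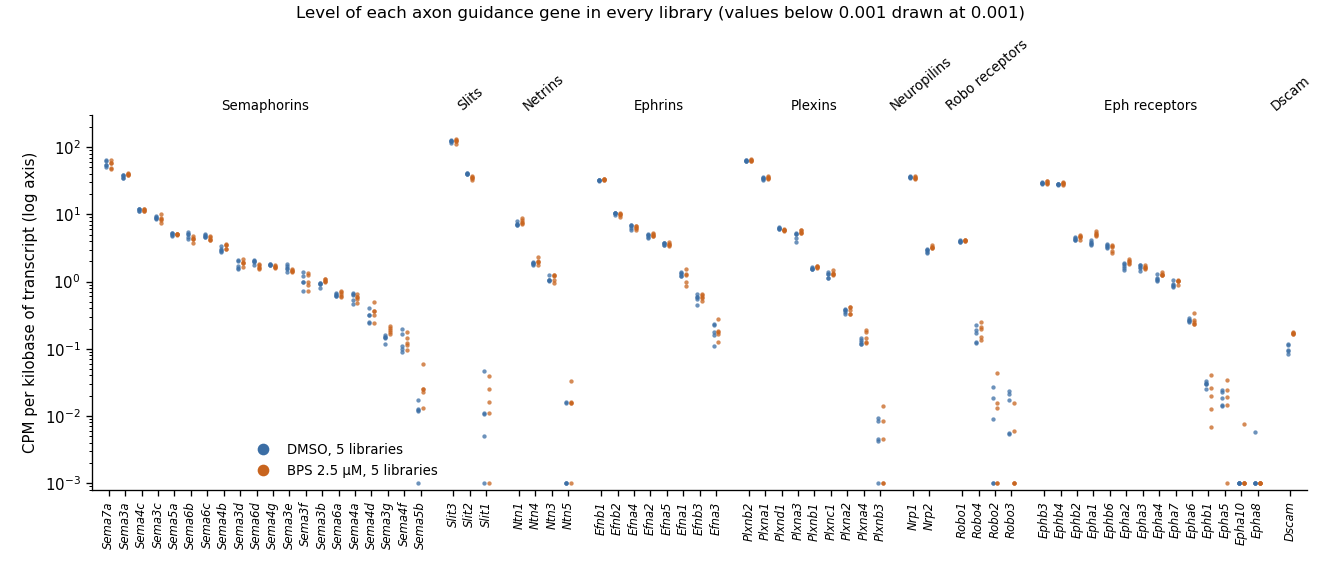
Level of each of the 65 genes in every library, in CPM per kilobase of transcript on a log axis, by family, with DMSO in blue and BPS in orange. Levels span several orders of magnitude, from Slit3 at 123 and Plxnb2 at 63.5 CPM per kilobase down to the 10 members that did not pass the filter on low counts.

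Several receptors of the best-known guidance systems were close to absent. Of the 65 members, 55 passed the filter on low counts and 10 did not, namely Sema5b, Slit1, Ntn5, Plxnb3, Robo2, Robo3, Epha5, Epha8, Epha10 and Ephb1. Their counts lay between 0 and 15 in every library. A library with 0 counts still allows a level of up to 0.0862 CPM, for counting error only. Robo1 was the most abundant Robo receptor, at 4.07 CPM per kilobase, whereas Robo4, known from endothelium, had 0.178 CPM per kilobase. Dcc, the classical netrin receptor, had 0 to 2 counts in every library. Of the other netrin receptors, neogenin (Neo1) stood at 171 to 185 CPM and Unc5b at 236 to 276 CPM. Unc5a had 36.5 to 43.6 CPM and Unc5c had 6.81 to 8.11 CPM. Unc5d, with 0 to 8 counts per library, did not pass the filter on low counts.

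Few members differed between BPS and DMSO. In the edgeR quasi-likelihood fit, with p-values adjusted over all genes by the Benjamini-Hochberg method, 4 of the 55 tested members had an adjusted p under 0.05 (7.27%), beside 4.88% of all 14597 genes tested. Epha1, Nrp2 and Dscam were higher in BPS, where 3.06% of all genes were called higher, and Slit2 was lower, where 1.82% of all genes were called lower. Dscam had been named with its rise in these libraries known, and without it the count was 3 of 54, or 5.56%. The libraries of the 2 groups did not overlap for 8 tested members (14.5%), beside 6.9% of all genes. An unadjusted p under 0.05 was found for 32.7% of tested members and 18.8% of all genes. The median log2 fold change of the members was 0.04, against 0.00 for all genes.

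**Figure D2:**
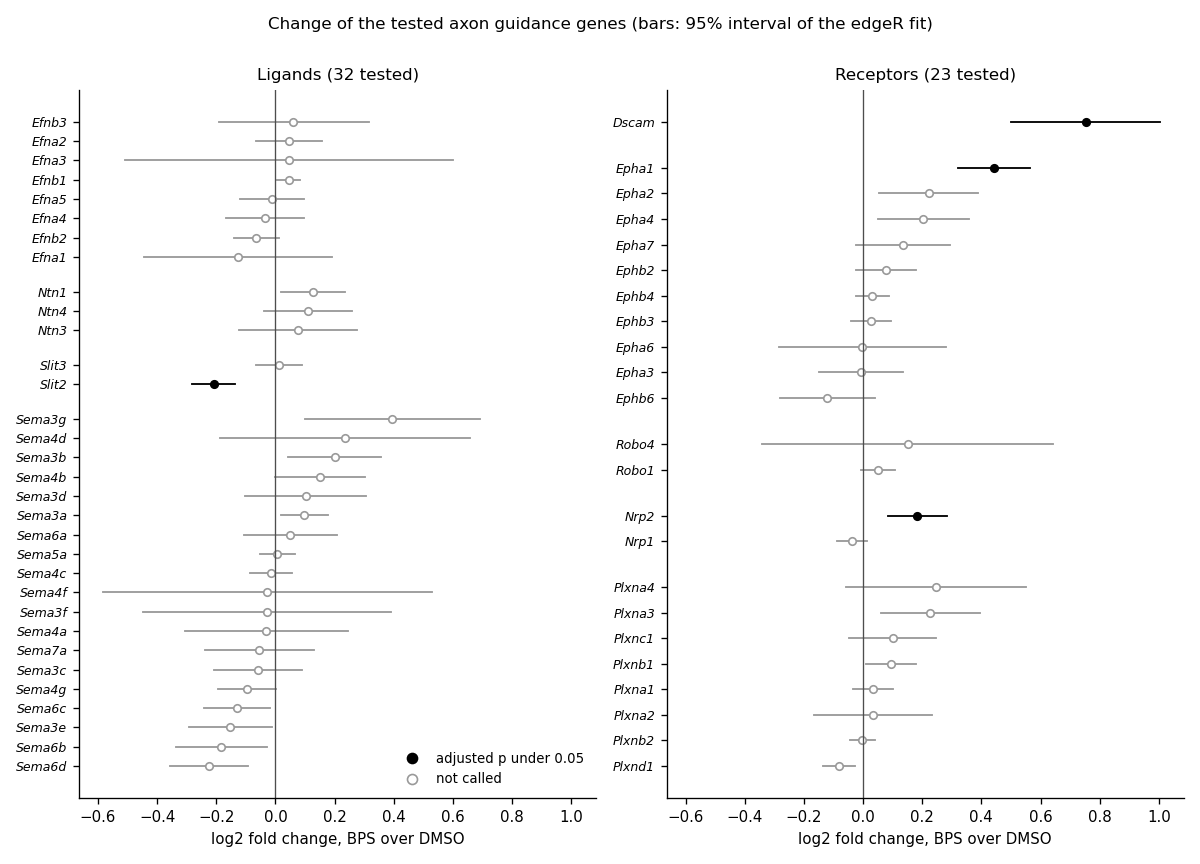
Log2 fold change of the 55 tested members, BPS over DMSO, with ligands on the left and receptors on the right. Bars are 95% intervals of the edgeR fit and filled points have an adjusted p under 0.05, which are Slit2 among the ligands and Epha1, Nrp2 and Dscam among the receptors.

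Ligands and receptors were counted separately. Of 32 tested ligands, 16 had a log2 fold change above 0 and 16 below, and 1 was called (3.12%, beside 4.88% of all genes). Of 23 tested receptors, 17 were above 0 (73.9%, beside 50.2% of all genes) and 3 were called (13.0%, beside 4.88%). Dscam, named with its rise in these libraries known, is among these 17 and among these 3. With DESeq2 size factors, upper-quartile factors, library size alone, limma-voom, the DESeq2 Wald test, 1 surrogate variable or the replicate block, which all kept these 23 receptors, the count of receptors above 0 was 17 or 19. No test was made of the difference between ligands and receptors.

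Slit2, a secreted glycoprotein that binds Robo receptors and repels migrating cells and axons, was the only ligand called. Its levels were 403, 412, 417, 394 and 399 CPM in DMSO and 320.3, 361, 350, 352 and 368 CPM in BPS. Every BPS library lay below every DMSO library. The mean (± SD, n = 5 per group) was 405 ± 9.3 CPM with DMSO against 350.3 ± 18.3 CPM with BPS. The log2 fold change was -0.21 with a standard error of 0.03 (edgeR adjusted p = 0.00406). Of the counts of Slit2, 85.2% lay on predicted RefSeq transcript models. When only accessions with an identical version were kept, which removed those models, the log2 fold change was -0.14 with an adjusted p of 0.332.

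Slit3, the more abundant paralogue, did not follow it. Its levels were 643, 659.5, 639.8, 608 and 643 CPM in DMSO and 589, 688, 642, 642 and 659.9 CPM in BPS. The groups overlapped, and the log2 fold change of 0.01 had a 95% interval of -0.07 to 0.09. Whether the 2 Slits differ in response was not tested. Robo1, the receptor of both, had 30.8, 29.0, 29.7, 30.5 and 31.1 CPM in DMSO and 30.8, 30.9, 32, 31.2 and 31.4 CPM in BPS. These ranges overlapped (log2 fold change 0.05, edgeR adjusted p = 0.341).

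Netrin 1 (Ntn1) is a secreted, laminin-related cue. It was the most abundant netrin, with 40.9, 41.0, 39.8, 40.4 and 45.1 CPM in DMSO and 46.6, 50.1, 41.6, 44.6 and 43.3 CPM in BPS. The groups overlapped through DMSO replicate 5, and the log2 fold change of 0.13 did not pass the test (edgeR adjusted p = 0.187). Ntn3 and Ntn4, the other tested netrins, had log2 fold changes of 0.08 and 0.11, and neither was called.

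Among the Eph receptors, Epha1 rose. Epha1 is an A-type receptor that binds ephrins anchored in the membrane by a lipid, and is best known from epithelia. It had 13.4, 11.4, 12, 12.5 and 12.4 CPM in DMSO and 18.4, 17.2, 15.9, 17.0 and 15.4 CPM in BPS. All BPS libraries lay above all DMSO libraries. The mean rose from 12.3 ± 0.7 to 16.8 ± 1.17 CPM (SD, n = 5 each), which is 1.36-fold. Its log2 fold change was 0.44 with a standard error of 0.06 (edgeR adjusted p = 0.00115). The gene was called under all 21 alternative settings, with adjusted p-values from 6.22e-09 to 0.0378. Epha1 shares 236 exon bases, 6.01% of its own, with Zyx on the opposite strand. Zyx encodes the focal adhesion protein zyxin and also rose, from 522 ± 12.2 to 587 ± 20 CPM (log2 fold change 0.17, adjusted p = 0.0026). The library kit kept strand, per the labels' protocols, but whether strand was used in counting was not given in the sources used here. Reads from the shared stretch then cannot be told apart between the genes.

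The remaining Eph receptors moved less. Epha2 and Epha4 had log2 fold changes of 0.22 and 0.20, with edgeR adjusted p-values of 0.13 and 0.128. The abundant B-type receptors were close to even: Ephb3 had 117 to 128 CPM in DMSO and 118 to 130.5 CPM in BPS, with a log2 fold change of 0.03 and a 95% interval of -0.04 to 0.10. Of 10 tested Eph receptors, 7 were above 0 and only Epha1 was called. None of 8 ephrins was called, with 4 above 0 and 4 below. Efnb1, the most abundant ephrin, had 104, 105, 105, 106 and 106 CPM in DMSO and 106, 111, 108, 111 and 106 CPM in BPS. The groups met at 106 CPM and the log2 fold change of 0.05 did not pass the test (edgeR adjusted p = 0.195).

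None of 19 tested semaphorins was called, although 7 had an unadjusted p under 0.05 (36.8%, beside 18.8% of all genes). Sema6d, a transmembrane semaphorin and ligand of Plxna1, came nearest. It had 12.8, 12.6, 11.9, 11 and 12.5 CPM in DMSO and 10, 11.2, 9.45, 11.1 and 10.3 CPM in BPS. DMSO replicate 4, at 11 CPM, lay below the BPS libraries 2 and 4, while the other 4 DMSO libraries lay above all of BPS. The log2 fold change was -0.22 with a standard error of 0.06 (edgeR adjusted p = 0.0551). On leaving out 1 library, the adjusted p ran from 0.036, without DMSO replicate 4, to 0.123, and 1 of 10 such fits called the gene. Of the 4 class 6 semaphorins, Sema6b, Sema6c and Sema6d had log2 fold changes of -0.18, -0.13 and -0.22, and Sema6a had 0.05.

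Class 3 semaphorins are the secreted members. Sema3a, the founding repellent cue, had 231, 219.7, 204, 206 and 227 CPM in DMSO and 245, 234, 225, 233 and 228 CPM in BPS. The ranges overlapped, and its log2 fold change of 0.10 did not pass the test (edgeR adjusted p = 0.154). Sema3b and Sema3g had no overlap between groups, with log2 fold changes of 0.20 and 0.40, but neither was called (adjusted p = 0.145 and 0.17). Sema3g rests on only 21 to 35 counts per library. Sema7a varied widely within groups, from 165 to 213 CPM in DMSO and from 159 to 209.6 CPM in BPS, which left an interval of -0.24 to 0.13 for its log2 fold change.

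The neuropilins bind class 3 semaphorins and vascular endothelial growth factors. Nrp2 had 18.9, 18.6, 16.7, 17.3 and 19.3 CPM in DMSO and 21.9, 19.8, 20.3, 20.5 and 20.5 CPM in BPS. The groups did not overlap, but the highest DMSO library, 19.3 CPM, and the lowest BPS library, 19.8 CPM, were close. The mean went from 18.2 ± 1.1 to 20.6 ± 0.777 CPM (SD, n = 5 each), and the log2 fold change was 0.18 with a standard error of 0.05 (edgeR adjusted p = 0.0431). This call was lost on leaving out any 1 library other than DMSO replicate 5, with edgeR adjusted p-values of up to 0.0945. It was also lost with all libraries kept, under library size alone, no filter, the replicate block, exact accession versions and transcripts not summed. Nrp1, at 35.7 CPM per kilobase against 3.05 for Nrp2, had 135, 129, 127, 129 and 129.7 CPM in DMSO and 125, 126, 122, 132 and 129 CPM in BPS. Its groups overlapped, with a log2 fold change of -0.04 and a 95% interval of -0.09 to 0.01.

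None of 8 tested plexins was called. Plxnb2, a receptor of class 4 semaphorins, had 406 to 426 CPM in DMSO and 404 to 427 CPM in BPS, and its log2 fold change had a 95% interval of -0.04 to 0.04. Plxnd1, a receptor of Sema3e, had 44.2, 41.6, 41.9, 43.5 and 43.1 CPM in DMSO and 40.8, 40.7, 39.8, 41.4 and 39.7 CPM in BPS. Each BPS library lay below each DMSO library, but by a small margin, and the log2 fold change of -0.08 did not pass the test (edgeR adjusted p = 0.0823). Plxna3 had 26.7, 36.6, 30.8, 35.6 and 35.3 CPM in DMSO and 36.7, 37.9, 41.0, 40.4 and 37.2 CPM in BPS. The groups did not overlap, DMSO spread more widely, and the log2 fold change of 0.23 did not pass (adjusted p = 0.123). The 4 A-type plexins, which pair with neuropilins or bind class 6 semaphorins, all had log2 fold changes above 0, from 0.03 to 0.25, and none was called. Without BPS replicate 3, BPS replicate 5 or DMSO replicate 1, and with exact accession versions or transcripts not summed, 3 were above 0.

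Dscam, a cell adhesion receptor of the immunoglobulin family that also binds netrins, was chosen for its change, so its values are a description. It had 0.843, 1.02, 0.989, 0.816 and 0.726 CPM in DMSO and 1.45, 1.44, 1.54, 1.49 and 1.49 CPM in BPS. The BPS libraries lay close together and all above DMSO, at a mean of 1.48 ± 0.0417 against 0.879 ± 0.124 CPM (SD, n = 5 each), or 1.69-fold. These levels come from 26 to 58 counts per library. Dscam also shares 174 and 99 exon bases with 2 RNAs of the opposite strand.

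**Figure D3:**
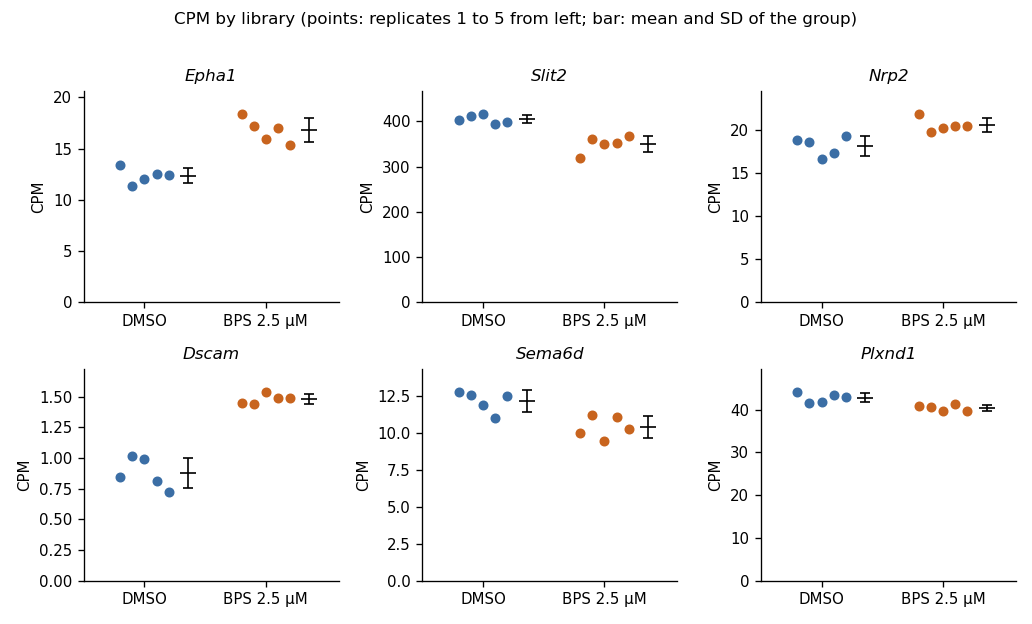
CPM in each library for Epha1, Slit2, Nrp2, Dscam, Sema6d and Plxnd1, with the group mean and SD beside the points and axes from 0. Epha1 and Slit2 separate the groups clearly at 12.3 against 16.8 and 405 against 350.3 CPM, whereas Nrp2 and Plxnd1 separate them narrowly and Sema6d overlaps.

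The promoters of Slit2, Epha1, Nrp2 and Dscam are shown because these are the members that the comparison called. Each window runs from 250 bases before the annotated start to 50 bases after it, in assembly GRCm38.p6 from RefSeq, 5′ to 3′ on the strand of the gene. Capitals mark GCGTG, the core bound by the aryl hydrocarbon receptor.
Slit2, chr5:47982905-47983204, forward strand: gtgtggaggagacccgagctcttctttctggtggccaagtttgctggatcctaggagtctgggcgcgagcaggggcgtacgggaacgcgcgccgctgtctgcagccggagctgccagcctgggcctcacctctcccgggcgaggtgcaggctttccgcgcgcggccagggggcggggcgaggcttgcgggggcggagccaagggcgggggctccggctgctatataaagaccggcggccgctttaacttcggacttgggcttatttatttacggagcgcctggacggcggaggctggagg
Epha1, chr6:42373219-42373518, reverse strand: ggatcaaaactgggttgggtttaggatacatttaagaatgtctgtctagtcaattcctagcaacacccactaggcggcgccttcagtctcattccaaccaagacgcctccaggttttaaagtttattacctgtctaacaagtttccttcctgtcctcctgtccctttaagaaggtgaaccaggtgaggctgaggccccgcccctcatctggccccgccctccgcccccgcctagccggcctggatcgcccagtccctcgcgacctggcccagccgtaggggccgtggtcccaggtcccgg
Nrp2, chr1:62703067-62703366, forward strand: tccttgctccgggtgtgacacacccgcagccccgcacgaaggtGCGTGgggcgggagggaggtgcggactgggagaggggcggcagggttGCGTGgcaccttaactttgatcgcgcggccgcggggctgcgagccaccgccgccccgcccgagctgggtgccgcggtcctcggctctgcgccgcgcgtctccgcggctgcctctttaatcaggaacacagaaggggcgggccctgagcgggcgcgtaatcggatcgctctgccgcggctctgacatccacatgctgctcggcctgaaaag
Dscam, chr16:97170686-97170985, reverse strand: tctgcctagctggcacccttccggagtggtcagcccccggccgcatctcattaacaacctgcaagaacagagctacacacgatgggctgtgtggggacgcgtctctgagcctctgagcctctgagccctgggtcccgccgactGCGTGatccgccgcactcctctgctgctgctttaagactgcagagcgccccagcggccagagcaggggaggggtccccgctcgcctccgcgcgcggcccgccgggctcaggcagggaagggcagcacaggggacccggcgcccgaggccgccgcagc
The core GCGTG, searched on both strands, occurred 2 times in the Nrp2 window and 1 time in the Dscam window, and these letters were not in the Epha1 and Slit2 windows. It was found in 39.7% of 73 member promoters, from 57 genes, and in 32.4% of all 32851 promoters. The letters TGANTCA, the AP-1 element, also searched on both strands, were in none of the 4 windows, in 4.11% of member promoters and in 7.81% of all. The 2 motifs can share the letters TG. A match is a string of letters in a window and was not tested as a binding site.

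Several members have many annotated transcripts, and the share of counts on each was compared as a measure separate from gene level. There were 53 shares in 21 genes with at least 100 counts per library on average and at least 2 transcripts above 10%. None passed an exact two-sided permutation test after Benjamini-Hochberg adjustment (lowest adjusted p = 0.481), and 4 had an unadjusted p under 0.05. The smallest p that 5 against 5 libraries allow is 0.00794, which for a single share adjusts to 0.421, so at least 9 shares at that p would be needed for any to pass. The absence of calls therefore says nothing about whether shares differed. The lowest unadjusted p, 0.0238 by the exact permutation test, belonged to a transcript of Nrp2 that held 17.1 ± 2.94% of the Nrp2 counts in DMSO and 9.19 ± 6.48% in BPS (SD, n = 5 each). Single BPS libraries differed widely, with a share of 15.5% in BPS replicate 1 and 0.00141% in BPS replicate 3. The estimates for near-identical transcripts are thus less certain than gene totals.

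The genes that carry guidance signals into the cell were taken from 5 lists of 124 genes that are not members. Of 114 tested, 12 were called (10.5%, beside 4.88% of all genes), 10 higher and 2 lower. Their median log2 fold change was 0.02, against 0.00 for all genes. The lists were chosen with earlier results of these data known, so these counts describe the lists and are no independent test.

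In semaphorin and plexin signalling, 5 of 26 tested genes were called, all of them higher (19.2%, beside 4.88% of all genes called). Mical2, a flavin monooxygenase that oxidises actin, had 159 to 182 CPM in DMSO and 194 to 227 CPM in BPS, with no overlap (log2 fold change 0.30, edgeR adjusted p = 0.00377). With transcripts not summed, Mical2 lost its call (edgeR adjusted p = 0.0508). The Src-family kinase Fyn rose by a log2 fold change of 0.13 (adjusted p = 0.00328). Its call was lost with exact accession versions (edgeR adjusted p = 0.0978) and with transcripts not summed. Rras2, a Ras-family GTPase, rose by a log2 fold change of 0.17 (adjusted p = 0.00483). The collapsin response mediators Dpysl3 and Crmp1 rose by 0.11 and 0.27 on the log2 scale (edgeR adjusted p = 0.0139 and 0.0353). Dpysl3 also lost its call with transcripts not summed. On leaving out 1 library, Crmp1 was called only without BPS replicate 5 or DMSO replicate 2, and its adjusted p reached 0.0834.

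In Slit-Robo and netrin signalling, 1 of 24 tested genes was called higher and 1 lower (8.33%, beside 4.88% of all genes called). Vasp, which promotes actin filament growth, rose by 0.12 on the log2 scale (edgeR adjusted p = 0.00858). With the replicate block Vasp lost its call (edgeR adjusted p = 0.0525). Gpc1, a glypican that binds Slits, fell from 238 ± 3.95 to 223 ± 6.72 CPM (SD, n = 5 each), with -0.10 as its log2 fold change (adjusted p = 0.0275). Its call was lost on leaving out any 1 of BPS replicates 3, 4 and 5 or DMSO replicates 3, 4 and 5, with an adjusted p of up to 0.067. In Eph and ephrin signalling, 2 of 19 tested genes were called (10.5%, beside 4.88% of all genes). The exchange factor Kalrn rose by 0.24 on the log2 scale (edgeR adjusted p = 0.0156). The Rac exchange factor Tiam1 had a log2 fold change of -0.17 there (adjusted p = 0.0137). Both calls were lost with exact accession versions and with transcripts not summed, and that of Kalrn also with the replicate block.

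Of the 24 tested genes among the other guidance receptors and ligands, 0 were called by edgeR, while 5 had an unadjusted p under 0.05 (20.8%, beside 18.8% of all genes). The mural marker sum given above, mostly Cspg4 and Mcam, did not overlap between groups. Its part in the values of the called signalling genes was not tested.

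**Figure D4:**
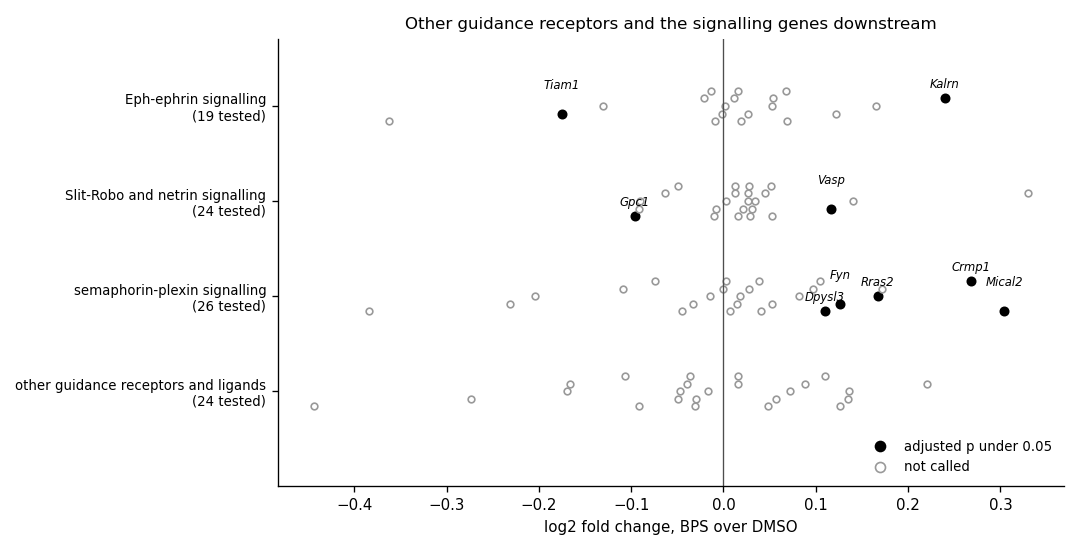
Log2 fold change, BPS over DMSO, of the tested genes of 4 signalling lists, with filled and named points for an adjusted p under 0.05. The called genes lie between -0.17 for Tiam1 and 0.30 for Mical2, and the list of other guidance receptors and ligands has none.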

How the data were processed

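RNA was sequenced from 5 DMSO and 5 BPS libraries, made with a directional kit per the labels' protocols. The deposited table gives the authors' estimated counts per RefSeq transcript, made with kallisto 0.42.4 per the submitters' processing notes. The strand setting and index were not given in the sources used here. kallisto splits reads among similar transcripts, so transcript values are less certain than gene totals. Of 107384 transcripts, 86722 matched a gene of the RefSeq table of GRCm38.p6 by accession without version and held 93.1% of the counts. These expected counts were summed per gene and rounded.

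BPS was compared with DMSO in R 4.3.3 with edgeR 4.0.16 (filterByExpr, TMM factors 0.9854 to 1.008, quasi-likelihood test, no covariates), with Benjamini-Hochberg adjustment over 14597 genes, and the calls are those with an adjusted p under 0.05. The code was tested on simulated data. CPM are assigned counts per 1000000 of the TMM-scaled library size. Lengths for CPM per kilobase come from GENCODE M21 transcripts linked to RefSeq, which held 72.5% of the counts of the members. Between replicates of a group, chi-square over its degrees of freedom was 4.13 to 8.77, which leaves no pair of identical libraries.

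The members, the gene lists and the rule for named genes were chosen with earlier results of these data known. Named were members with an adjusted p under 0.05, Dscam, the member with the smallest p and the one with the highest CPM in each family, and up to 5 called genes per signalling list. Of the 5 signalling lists, 1 is counted in the total and not reported here by itself. A few more were named after their values were seen. These are members with no overlap between groups, the most abundant members per kilobase, relatives of a named gene, and receptors of the ligands described. Alternatives were DESeq2 1.42.0, limma-voom 3.58.1, 1 surrogate variable (sva 3.50.0), a CPM filter or none, other scalings, exact accession versions, transcripts without summing, a replicate block and leaving out each library. The labels do not say whether replicates were separate animals or dishes. The p-values set the group difference against the variation between these libraries, and whether that includes variation between animals is not known.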

Additional observations from a re-analysis of the deposited data

Results flagged for a closer look

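Looking at 52 groups of 5 values, those of the named members and signalling genes in each treatment, 2 had a library that stood apart from the other 4 by Dixon's criterion, where chance gives about 2.6. Ntn1 had 45.1 CPM in DMSO replicate 5, while the other DMSO libraries had 39.8 to 41.0 CPM. Cdc42 had 554 CPM in DMSO replicate 5, while the other DMSO libraries all had 558 CPM to 3 digits.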

How the results depend on the processing

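The count of changed members, 4 as reported, was 2 with exact accession versions (45 members tested) and 1 with transcripts not summed. It was 3 to 4 on leaving out 1 library, 3 without a filter, and 5 with the DESeq2 Wald test and with the CPM filter. Over all genes the share called was 4.88% as reported, 2.79% with exact versions and 3.06% to 5.27% on leaving out 1 library. It was 2.22% without a filter, 6.52% with the DESeq2 Wald test, 6.07% with the CPM filter and 5.06% with upper-quartile factors. Of transcripts not summed, 0.335% were called. The count of changed signalling genes, 12 as reported, was 6 with exact versions, 4 with transcripts not summed, 9 to 16 on leaving out 1 library, 14 with the CPM filter, 15 with upper-quartile factors, 18 with the DESeq2 Wald test and 10 to 13 with the others apart from the replicate block. The cause was not tested, though exact versions keep 46184 transcripts. With the replicate block, 3 members and 7 signalling genes were called, beside 2.56% of all genes. The labels do not say whether same-numbered libraries belong together. Their deviations from the group means correlated at -0.078 to 0.1, which cannot settle whether they were paired. With library size alone, 45.9% of all calls were higher, against 62.8% as reported, and the called members were 2 higher (Epha1, Dscam) and 2 lower (Slit2, Sema6d).

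Direction reversed for 3 named genes, of which Plxnb2 and Slit3 lie near 0. The log2 fold change of Plxnb2 was 0.001 with 1 surrogate variable and 0.003 with upper-quartile factors. On leaving out 1 library it was -0.015 to 0.010, above 0 without BPS replicate 1, BPS replicate 5 or DMSO replicate 5. With exact versions it was 0.517, but these kept only 7.63% of the Plxnb2 counts. The log2 fold change of Slit3 was -0.003 with library size alone. On leaving out 1 library it was -0.012 to 0.043, below 0 without BPS replicate 2 or DMSO replicate 4. With transcripts not summed, the value of a gene is that of its single transcript with the most counts, not of the gene total. Kalrn, called at 0.24, had -0.066 in that setting, and Sema6d had -1.137. The Sema6d transcript held 29.0% of the counts of the gene and went from 175 to 76.5 counts on average. Another Sema6d transcript, also at 29.0%, went from 106 to 132 counts.

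Epha1 was called in all 21 alternatives, Slit2 in 19, Nrp2 in 7 and Sema6d in 4. Slit2 lost its call with exact versions and with transcripts not summed. Crmp1 and Cdc42 were called in 9 and 5 of 21 alternatives, and Gpc1 in 12 of 20. Dscam, Mical2, Dpysl3 and Vasp were called in 20 of 21, Fyn and Tiam1 in 19 and Kalrn in 18. Dscam lost its call with transcripts not summed. The library codes in the labels run through DMSO and then BPS, so library order and group cannot be told apart.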
